A study of Bos taurus with 8 samples.

Results

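The genes described here encode the TGF-beta ligands TGFB1, TGFB2 and TGFB3, the receptors TGFBR1, TGFBR2 and TGFBR3, the intracellular SMAD3 and SMAD7, the TGF-beta family member myostatin (MSTN) and its binding protein follistatin (FST); genes are written in lower-case italics, as *tgfb1* for TGFB1. They were chosen by name, and their probes were found through the RefSeq accession that each array spot carries: 8 of 21475 probes belonged to 7 of the 10 genes, with 2 probes for *tgfb3*. *tgfbr3*, *smad3* and *smad7* had no probe matched in this way and were not analysed here, although the array may carry probes for them. The study itself lists *smad7* from these arrays as lower in both beef breeds. Of the 8 probes, 7 passed the filter on dim probes and were tested among 17622 probes.

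TGF-beta ligands are secreted in a latent form, are released in the extracellular matrix, and bind a type II receptor that recruits and activates a type I receptor. The activated receptor phosphorylates SMAD2 and SMAD3, which enter the nucleus with SMAD4 and change transcription, while SMAD7 inhibits the receptor. In muscle, TGF-beta and myostatin hold back the differentiation of myoblasts, TGF-beta drives matrix production by fibroblasts, and follistatin binds activin and myostatin and keeps them from their receptors.

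The samples were primary cultures from the semitendinosus muscle of 15-month-old bulls, with 4 bulls of each breed: Limousin (LIM) and Hereford (HER), both beef breeds, and Holstein Friesian (HF), a dairy breed used as the control. All cultures grew in medium with 10% fetal bovine serum and were frozen while proliferating, at 80% confluence, with no other treatment. Each of 8 two-colour arrays carried 1 beef breed culture and 1 HF culture: 4 arrays compared LIM (Cy5) with HF (Cy3) and 4 compared HER (Cy3) with HF (Cy5). The LIM and HER arrays lay on 2 different slides, so that within a comparison the breed, the slide and the dye orientation cannot be told apart. The dyes ran in opposite directions in the 2 comparisons, so that a constant dye effect of a probe cancels in their mean, called the beef effect, and does not cancel in the difference LIM minus HER. Both comparisons used HF cultures, and the sources do not say which HF bull was on which array. With 4 HF bulls for 8 arrays, HF bulls recur among the arrays, while the fit takes the 8 arrays as independent. The p-values measure the spread between these arrays, and those of the beef effect may be too small for this reason.

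The cultures were enriched for myoblasts by repeated preplating, which removes the cells that attach first, and were not pure. Myogenic markers were present, and 9 of the 9 tested were higher in the beef cultures, with a median beef effect of 2.05 (log2). Their summed signal was 71700 to 167000 in LIM against 17800 to 60400 in HF. On the HER slide it was 37500 to 142000 in HER against 11500 to 40000 in HF. The probe of *ckm*, creatine kinase of mature muscle, was well above background in only 3 beef channels and in no HF channel. It did not pass the filter on dim probes and was not tested. Of 9 fibroblast markers tested, 6 were higher and 3 lower, and the lower ones were *pdgfra* (-1.42), *tcf21* (-1.13) and *vim* (-0.59). Their summed signal was 419000 to 846000 in LIM against 392000 to 610000 in HF, and 336000 to 556000 in HER against 296000 to 409000 in HF. Smooth muscle and pericyte markers were higher for 3 of 5 tested, with summed signals of 221000 to 451000 in LIM against 102000 to 274000 in HF, and 273000 to 472000 in HER against 133000 to 192000 in HF. Of the adipocyte markers 2 of 6 were higher and 3 lower, of the leukocyte markers 1 of 3 was higher, of the markers of dividing cells 1 of 3 was lower, and 0 of 4 endothelial markers passed the test (1 of 4 at an unadjusted p, by limma). These smaller counts moved with single arrays: leaving out 1 array gave 2 to 4 adipocyte markers called in either direction (2 without HER replicate 3), 1 to 2 leukocyte markers (2 without LIM replicate 1) and 0 to 2 markers of dividing cells (0 without HER replicate 2 or 3 or LIM replicate 1 or 3, and 2 without LIM replicate 4). Endothelial markers were called for 3 of 4, all higher, without HER replicate 3, for 1 without LIM replicate 1 and for 0 without any other array. With normexp background correction on the backgrounds as measured, 1 adipocyte, 0 leukocyte, 0 dividing-cell and 0 endothelial markers were called. In the reported beef effect the lower adipocyte markers were *cebpa* (-1.38), *pparg* (-0.58) and *lep* (-0.38). The higher ones were *plin1* (1.045) and *lpl* (0.955), and *fabp4* (0.286) was not called. A summed signal is weighted to the brightest probes of a list. That of the adipocyte markers was lower in the beef cultures, at 18000 to 63700 in LIM against 119000 to 150000 in HF. On the HER slide it was 38400 to 51700 in HER against 55100 to 112000 in HF. These differences ran beside every result that follows, and their part in those results was not tested. In such bulk RNA, fewer cells of a type and less RNA per cell cannot be told apart.

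Values are log2 ratios of the beef breed over HF from the same array, so that 1 stands for a doubling and -1 for a halving, and each is the mean of 2 spots. A change was called when limma's Benjamini-Hochberg adjusted p over all tested probes was at most 0.05 and the fold change at least 1.3. In the beef effect, 5 of the 7 tested probes passed, representing 4 of 6 genes, while 38.1% of all probes did. Of these, 2 were higher, as were 17.7% of all probes, and 3 were lower, as were 20.4%. In LIM over HF 3 of 7 probes passed, against 34.4% of all probes, and at an unadjusted p 5 passed, against 41.6%. In HER over HF 4 of 7 passed, against 24.4%, and at an unadjusted p 6 passed, against 34.8%. The log2 ratio had the same sign on all 8 arrays for 5 of the 7 probes and for 28.6% of all probes, with 2 probes always higher (11.7% of all) and 3 always lower (17.0% of all). None of the 7 differed between LIM and HER, where 0.233% of all probes passed; at an unadjusted p the count was also 0, against 14.1% of all probes. The median absolute beef effect was 0.75 for the 7 probes and 0.34 for all probes.

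**Figure D1:**
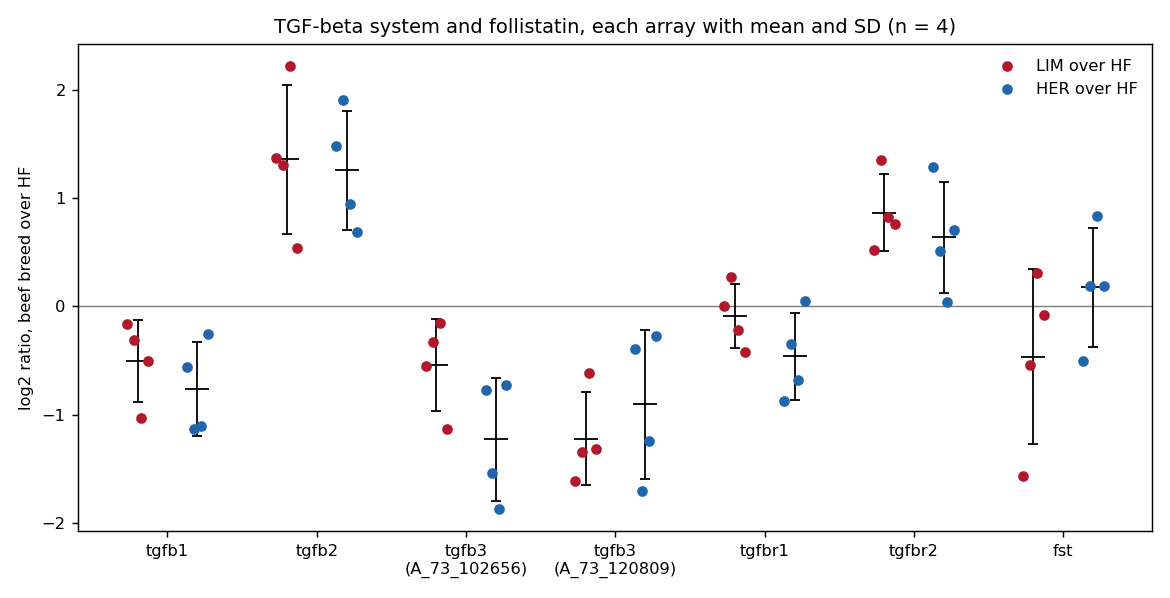
Log2 ratio of the beef breed over HF (y axis) for the 7 tested probes (x axis), with a point for each array, red for LIM and blue for HER, and the mean with its SD in black (n = 4 arrays). All 8 points of *tgfb2* and *tgfbr2* lie above 0, all 8 of *tgfb1* and of both *tgfb3* probes lie below 0, and those of *tgfbr1* and *fst* lie on both sides.

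The 3 TGF-beta ligands did not move together: *tgfb2* rose in the beef cultures while *tgfb1* and *tgfb3* fell. The 3 ligands signal through the same receptors, and *tgfb2* is the one that binds the type II receptor weakly without the coreceptor encoded by *tgfbr3*. For *tgfb2* (NM_001113252) the log2 ratios of LIM replicates 1 to 4 were 1.37, 1.31, 2.22 and 0.54. Those of HER replicates 1 to 4 were 1.48, 1.91, 0.95 and 0.69. All 8 arrays were above 0, with LIM replicate 3 highest and LIM replicate 4 lowest. The mean was 1.36 ± 0.69 (SD, n = 4) in LIM (adjusted p = 0.00667, limma) and 1.26 ± 0.55 (SD, n = 4) in HER (adjusted p = 0.0155, limma). The beef effect was 1.31 ± 0.20 (SE), a 2.48-fold higher level (adjusted p = 0.00106, limma). In HER the call rested on few arrays: without HER replicate 1 the mean was 1.18 (adjusted p = 0.0682, limma) and without HER replicate 2 it was 1.04 (adjusted p = 0.0706, limma).

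The signals behind these ratios showed the same separation. On the LIM slide *tgfb2* gave processed signals of 4060 to 9030 in LIM and 1800 to 2800 in HF. On the HER slide it gave 2070 to 6470 in HER and 1070 to 1850 in HF. The breeds did not overlap on either slide. On the LIM slide the signals of LIM and HF cultures did not overlap for 3 of the 7 probes, against 25.7% of all probes tested; on the HER slide those of HER and HF did not for 1 of 7, against 14.0%.

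**Figure D2:**
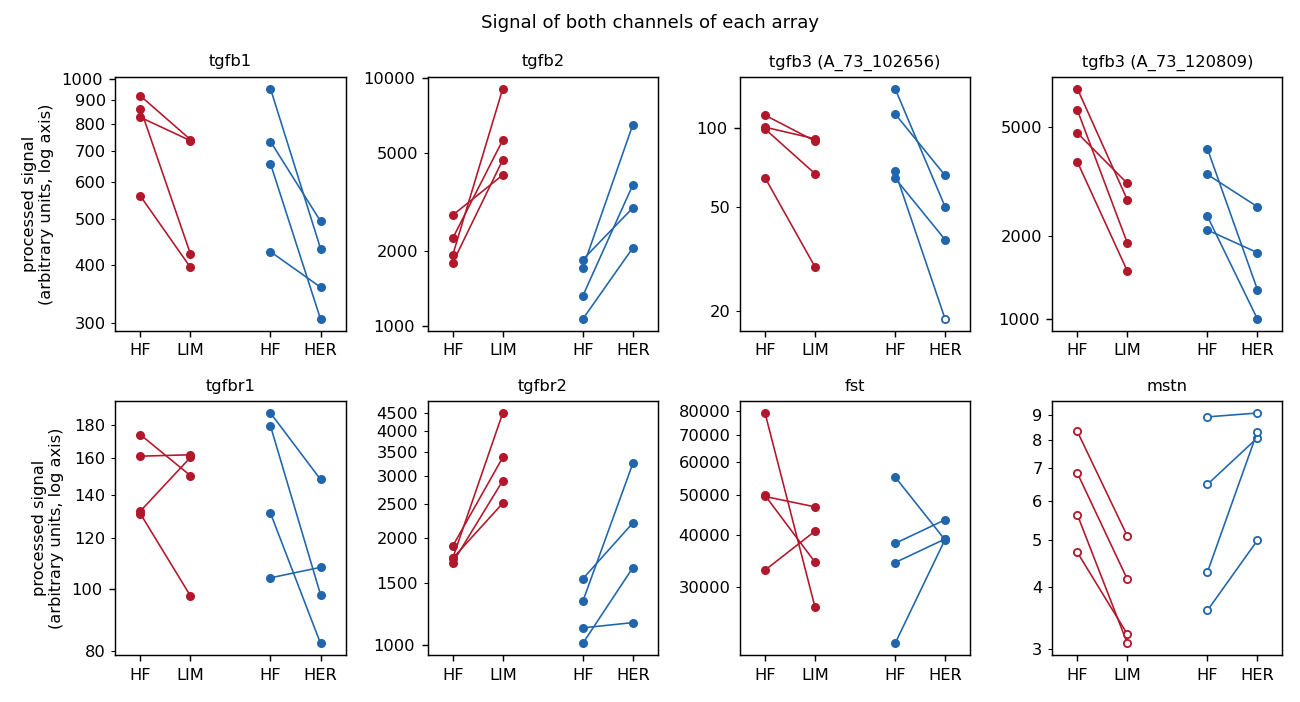
Processed signal (y axis, arbitrary units, log axis, a range of its own in each panel) of the HF and the beef channel of each array, joined by a line, red for the LIM slide and blue for the HER slide. Filled points were well above background and open points were not. The lines of *tgfb2* and *tgfbr2* rise from HF on every array, those of *tgfb1* and *tgfb3* fall, and all 16 points of *mstn* are open, so that their order has no meaning.

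*tgfb3*, a ligand prominent in development and in scar-free repair, had 2 probes of very unequal brightness. The bright probe A_73_120809 gave log2 ratios of -1.61, -1.35, -0.61 and -1.32 in LIM replicates 1 to 4 and of -0.39, -1.71, -1.24 and -0.27 in HER replicates 1 to 4. All 8 arrays were below 0, and HER replicates 1 and 4 were nearest to 0. The mean was -1.22 ± 0.43 (SD, n = 4) in LIM (adjusted p = 0.00771, limma) and -0.90 ± 0.69 (SD, n = 4) in HER (adjusted p = 0.0352, limma). The beef effect was -1.06 ± 0.18 (SE), 2.09-fold lower (adjusted p = 0.00202, limma). Its signal was 1490 to 3120 in LIM against 3740 to 6900 in HF, without overlap, and 999 to 2560 in HER against 2110 to 4170 in HF, with overlap. The HER call was lost without HER replicate 1 (-1.07, adjusted p = 0.0613), 2 (-0.64, adjusted p = 0.136) or 3 (-0.79, adjusted p = 0.115, limma), and without LIM replicate 2, which enters through the shared variance (adjusted p = 0.0532). It was also lost with no filter on dim probes (adjusted p = 0.0517, limma).

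The dim probe of *tgfb3*, A_73_102656, pointed the same way. Its log2 ratios were -0.55, -0.33, -0.15 and -1.14 in LIM replicates 1 to 4 and -0.77, -1.54, -1.88 and -0.73 in HER replicates 1 to 4. Every array was again below 0, but here the HER arrays lay lower. The mean of -0.54 ± 0.43 (SD, n = 4) in LIM was not called (adjusted p = 0.0973, limma), and that of -1.23 ± 0.57 (SD, n = 4) in HER was (adjusted p = 0.00925, limma). Its beef effect was -0.89 ± 0.16 (SE; adjusted p = 0.00277, limma). Its processed signals were 18.7 to 91.3 in the beef cultures and 64.5 to 142 in HF, and on HER replicate 3 the beef channel was not well above background. The paired spots of this probe differed by a median of 0.33 (log2), against 0.03 for the bright probe. The beef effect of the dim probe was -0.35 with no background subtraction, -0.27 with normexp background correction after marked local backgrounds were replaced and -0.11 with normexp on the backgrounds as measured, all below the 1.3-fold limit.

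*tgfb1*, the ligand most often linked to fibrosis, was lower on all 8 arrays. Its probe (NM_001166068) gave log2 ratios of -0.17, -0.31, -1.03 and -0.51 in LIM replicates 1 to 4. In HER replicates 1 to 4 it gave -0.56, -1.14, -1.10 and -0.25. The deepest values came from HER replicates 2 and 3 and LIM replicate 3. The mean was -0.50 ± 0.38 (SD, n = 4) in LIM, which was not called (adjusted p = 0.0708, limma), and -0.76 ± 0.43 (SD, n = 4) in HER, which was (adjusted p = 0.0236, limma). The difference LIM minus HER was 0.26 with a 95% interval of -0.36 to 0.88. Over both breeds the beef effect was -0.63 ± 0.14 (SE), 1.55-fold lower (adjusted p = 0.00564, limma), and -0.27 with normexp on the backgrounds as measured, below the 1.3-fold limit. The HER call was lost without HER replicate 1 (adjusted p = 0.0641), 2 (adjusted p = 0.102) or 3 (adjusted p = 0.0848, limma). The signals of beef and HF cultures overlapped on both slides, with 395 to 741 in LIM and 561 to 919 in HF, and 306 to 496 in HER and 427 to 952 in HF.

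On all 8 arrays the ratio of *tgfb2* was above 0 and those of *tgfb1* and *tgfb3* were below it. Their order within an array follows from these signs and is no further result. Within an array *tgfb2* lay above *tgfb1* by 0.94 to 3.26, with a median of 1.84. It lay above the bright *tgfb3* probe by 0.96 to 3.62, with a median of 2.43. These are differences between ratios and say nothing of which ligand was the most abundant, since the probes of different genes cannot be compared by signal.

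The type II receptor *tgfbr2*, which binds the ligand first, was higher in the beef cultures. Its log2 ratios (NM_001159566) were 0.52, 1.36, 0.83 and 0.77 in LIM replicates 1 to 4. They were 1.29, 0.51, 0.04 and 0.71 in HER replicates 1 to 4. All 8 were above 0, although HER replicate 3 showed almost no difference. The mean of 0.87 ± 0.35 (SD, n = 4) in LIM was called (adjusted p = 0.0127, limma), and that of 0.64 ± 0.52 (SD, n = 4) in HER was not (adjusted p = 0.0523, limma). The beef effect was 0.75 ± 0.14 (SE), 1.69-fold higher (adjusted p = 0.00354, limma), and LIM minus HER was 0.23 (95% interval -0.43 to 0.90). The signal was 2510 to 4510 in LIM against 1710 to 1900 in HF, without overlap, and 1160 to 3250 in HER against 1010 to 1540 in HF. The LIM call was lost without LIM replicate 2 (0.70, adjusted p = 0.0555, limma), whereas the HER mean was called without HER replicate 3 (0.84, adjusted p = 0.0389, limma) and after centring each array on its median (0.70, adjusted p = 0.0437, limma). The median log2 ratio of the 4 endothelial markers was -0.27, 2.94, 0.80 and 2.84 in LIM replicates 1 to 4 and 2.98, -0.29, -2.03 and 1.15 in HER replicates 1 to 4. It was highest in LIM replicate 2 and HER replicate 1 and lowest in LIM replicate 1 and HER replicate 3, as was *tgfbr2*. Singly, *kdr*, *tek* and *tie1* were highest in HER replicate 1 and lowest in LIM replicate 1 and HER replicate 3. In LIM *tie1* was highest in replicate 2, but *kdr* and *tek* in replicate 4. *cldn5* did not follow this order, with -0.53, -0.88, -0.53 and -0.33 in HER replicates 1 to 4. Its HER mean was called lower (-0.57, adjusted p = 0.0147, limma). The summed signal of these markers was 483 to 5580 in LIM against 505 to 1480 in HF. On the HER slide it was 201 to 3710 in HER against 334 to 900 in HF. All 4 were detected in HF. Their part in the *tgfbr2* result was not tested.

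The type I receptor *tgfbr1*, the kinase that phosphorylates SMAD2 and SMAD3, did not pass the adjusted threshold in LIM, in HER or in the beef effect. Its log2 ratios (NM_174621) were 0.01, 0.27, -0.22 and -0.42 in LIM replicates 1 to 4 and -0.87, -0.35, -0.68 and 0.05 in HER replicates 1 to 4. The LIM arrays lay on both sides of 0, and 3 of 4 HER arrays lay below it. The means were -0.09 ± 0.30 (SD, n = 4) in LIM (adjusted p = 0.71, limma) and -0.46 ± 0.40 (SD, n = 4) in HER (unadjusted p = 0.0269, adjusted p = 0.0814, limma). Without HER replicate 4, the only HER array above 0, the HER mean was -0.63 and was called (adjusted p = 0.0426, limma). The beef effect was -0.28, with a 95% interval of -0.56 to 0.00 (adjusted p = 0.0938, limma). This probe was dim, with processed signals of 82.2 to 162 in the beef cultures and 104 to 188 in HF. *tgfbr2* had a higher log2 ratio than *tgfbr1* on 8 of 8 arrays, by 0.51 to 2.16 with a median of 0.95.

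Follistatin had the largest SD of the 7 probes in LIM over HF and no difference that held across cultures. Its log2 ratios (NM_175801) were -1.56, -0.54, 0.31 and -0.08 in LIM replicates 1 to 4. They were -0.51, 0.19, 0.84 and 0.19 in HER replicates 1 to 4. LIM replicate 1 was far below the others, and 4 of 8 arrays lay on each side of 0. The mean was -0.47 ± 0.81 (SD, n = 4) in LIM (adjusted p = 0.259, limma) and 0.18 ± 0.55 (SD, n = 4) in HER (adjusted p = 0.692, limma). For *fst* the beef effect was -0.15 with a 95% interval of -0.64 to 0.35 (adjusted p = 0.601, limma), and LIM minus HER was -0.65 (95% interval -1.63 to 0.34; adjusted p = 0.539, limma). The paired spots of *fst* on an array differed by a median of 0.013 (log2). The HF signal ranged from 32900 to 79000 on the LIM slide and from 21900 to 55300 on the HER slide, while the beef signal ranged from 26700 to 46800 in LIM and from 38900 to 43600 in HER. The lowest ratio, in LIM replicate 1, came with the highest HF signal and also the lowest beef signal (26700). The highest ratio, in HER replicate 3, came with the lowest HF signal. Since the HF signal is the denominator of the ratio, such a link is partly built in.

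Myostatin, which limits muscle mass, could not be compared. Its probe (NM_001001525) was not well above background in any of the 16 channels. Its median intensity was 36 to 44 in the beef channels over local backgrounds of 24.5 to 38.75, and 32.5 to 42 in the HF channels over 21.5 to 40. Any difference in *mstn* was not detectable at this signal.

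Beyond the named members, 88 other genes of the TGF-beta, activin and BMP pathways were listed by role, of which 44 had a matched probe and 39 were tested. In the beef effect 11 rose, 10 fell and 18 did not pass the test; the share passing among all probes was 38.1%. These lists were drawn up with earlier results of these data known.

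Among the other ligands and their subunits, 3 of 4 passed, and the 2 inhibin subunits measured went in opposite directions. *inha*, the alpha subunit that turns activin into inhibin, was higher on all 8 arrays (beef effect 1.497 ± 0.20 (SE), adjusted p = 0.000703, limma); its size depended on the background correction, with 1.06 without subtraction, 0.87 with normexp after marked backgrounds were replaced and 0.65 with normexp on the backgrounds as measured, and it was called in each. *inhba*, the subunit of activin A, was lower on all 8 (-1.45 ± 0.24 (SE), adjusted p = 0.00192, limma), and so was *amh*, anti-Müllerian hormone (-1.03 ± 0.12 (SE), adjusted p = 0.000437, limma). The BMP ligand *bmp4* had a beef effect of 0.79 that did not pass (adjusted p = 0.0684, limma), and *gdf5* and *gdf10* were not well above background in any channel. Of 6 other receptors, 1 passed: *bmpr1b*, a type I BMP receptor, fell by 0.97 (SE 0.14, adjusted p = 0.0008, limma). The other 5, among them *acvr1*, *eng* and *bambi*, had beef effects between -0.14 and 0.17.

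Of 6 intracellular genes, 4 fell (20.4% of all probes) and 0 rose (17.7% of all probes). They were *pmepa1*, which is induced by TGF-beta and limits its signal (-0.91 ± 0.12 (SE), adjusted p = 0.000564, limma), *tgfb1i1*, a focal adhesion protein also called Hic-5 (-0.69 ± 0.09 (SE), adjusted p = 0.000504, limma), the BMP transducer *smad9* and the corepressor *tgif1*. *smad9* passed barely (-0.66 ± 0.24 (SE), adjusted p = 0.0484, limma) and kept its call in 8 of 21 alternatives; without HER replicate 1 it was -0.49 (adjusted p = 0.112, limma), and leaving out any other array also ended the call except LIM replicate 1. With the replicate number as a block *smad9* was not called either (adjusted p = 0.0883, limma). *tgif1* was lower with both of its probes (-0.48 and -0.92).

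*smad2*, which carries the signal from the TGF-beta receptor, was singled out after its values were seen. Its log2 ratios were 0.76, 0.77, 0.78 and 0.43 in LIM replicates 1 to 4 and -0.18, -0.14, -0.26 and -0.26 in HER replicates 1 to 4, so that every LIM array was above 0 and every HER array below. LIM over HF was called (0.68, adjusted p = 0.00177, limma) and HER over HF was not (-0.21, adjusted p = 0.156, limma). LIM minus HER was 0.89 ± 0.14 (SE) and did not pass the adjusted threshold (adjusted p = 0.0609, limma). In this difference breed, slide and dye cannot be told apart.

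Of 5 other antagonists 2 rose and 1 fell. *dcn*, decorin, a matrix proteoglycan that binds TGF-beta, had a beef effect of 1.63 ± 0.43 (SE; adjusted p = 0.0151, limma) with its brighter probe and -0.35, not called, with its other probe. *fstl1*, a secreted relative of follistatin, rose by 0.51 (SE 0.09, adjusted p = 0.00241, limma), and *wfikkn2*, which binds myostatin, fell by 0.71 (SE 0.11, adjusted p = 0.00147, limma). The fold of *wfikkn2* fell below 1.3 in each setting that replaced the software's background correction (-0.11 to -0.22).

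Of 6 genes listed under latency and activation 4 rose (17.7% of all probes) and 0 fell (20.4% of all probes) in the beef effect. By breed, 0 of the 6 were called in LIM over HF (34.4% of all probes). In HER over HF 1 was, *ltbp2* (24.4% of all probes). *itgav* and *itgb8* encode the 2 chains of an integrin that releases active TGF-beta. *itgb8* had a beef effect of 1.22 ± 0.35 (SE; adjusted p = 0.021, limma) and *itgav* of 0.82 ± 0.27 (SE; adjusted p = 0.0376, limma). *ltbp2*, a microfibril protein of the latent TGF-beta binding family, had one of 1.21 ± 0.24 (SE; adjusted p = 0.00443, limma), with 2.01 in HER and 0.41 in LIM. The LIM replicates 1 to 4 of *ltbp2* were at 1.25, 0.90, 0.56 and -1.04, and LIM replicate 4 was also the only array below 0 for *itgav* (-0.69) and *itgb8* (-0.67). Without LIM replicate 4 the beef effects were 1.45 for *ltbp2*, 1.10 for *itgav* and 1.49 for *itgb8*, each called. The difference LIM minus HER of *ltbp2* was -1.59 (adjusted p = 0.197, limma). *thbs1*, thrombospondin, had one of 0.38 ± 0.13 (SE; adjusted p = 0.0418, limma). These calls were fragile: leaving out 1 array at a time gave 1 to 4 of the 6, with 1 without LIM replicate 1, 2 or 3 and 2 without HER replicate 1, 2 or 4. With the replicate number as a block 2 of the 6 were called, *itgav* (adjusted p = 0.056, limma) and *thbs1* (adjusted p = 0.0659, limma) being lost, and with normexp on the backgrounds as measured 1 was, with *itgb8* at 0.42. Of the 4 genes that rose, only *ltbp2* kept its call in all 21 alternatives.

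Of 12 genes known as TGF-beta targets 4 rose, 2 fell and 6 did not pass. The largest increases were those of the matrix genes *fn1*, fibronectin (2.67 ± 0.28 (SE), adjusted p = 0.000307, limma), *col1a2* (2.55 ± 0.40 (SE), adjusted p = 0.0013, limma) and *col1a1* (2.22 ± 0.29 (SE), adjusted p = 0.000605, limma), each higher on all 8 arrays. *col1a1* and *dcn* also stand in the fibroblast marker list given above. *cdkn2b*, a cell cycle inhibitor, was the fourth that rose (1.02 ± 0.20 (SE), adjusted p = 0.00442, limma). *junb*, an AP-1 transcription factor, fell by 1.15 (SE 0.16, adjusted p = 0.000679, limma) and was lower on all 8 arrays, and *id1*, an inhibitor of differentiation induced by BMP, fell by 1.08 (SE 0.21, adjusted p = 0.00405, limma).

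**Figure D3:**
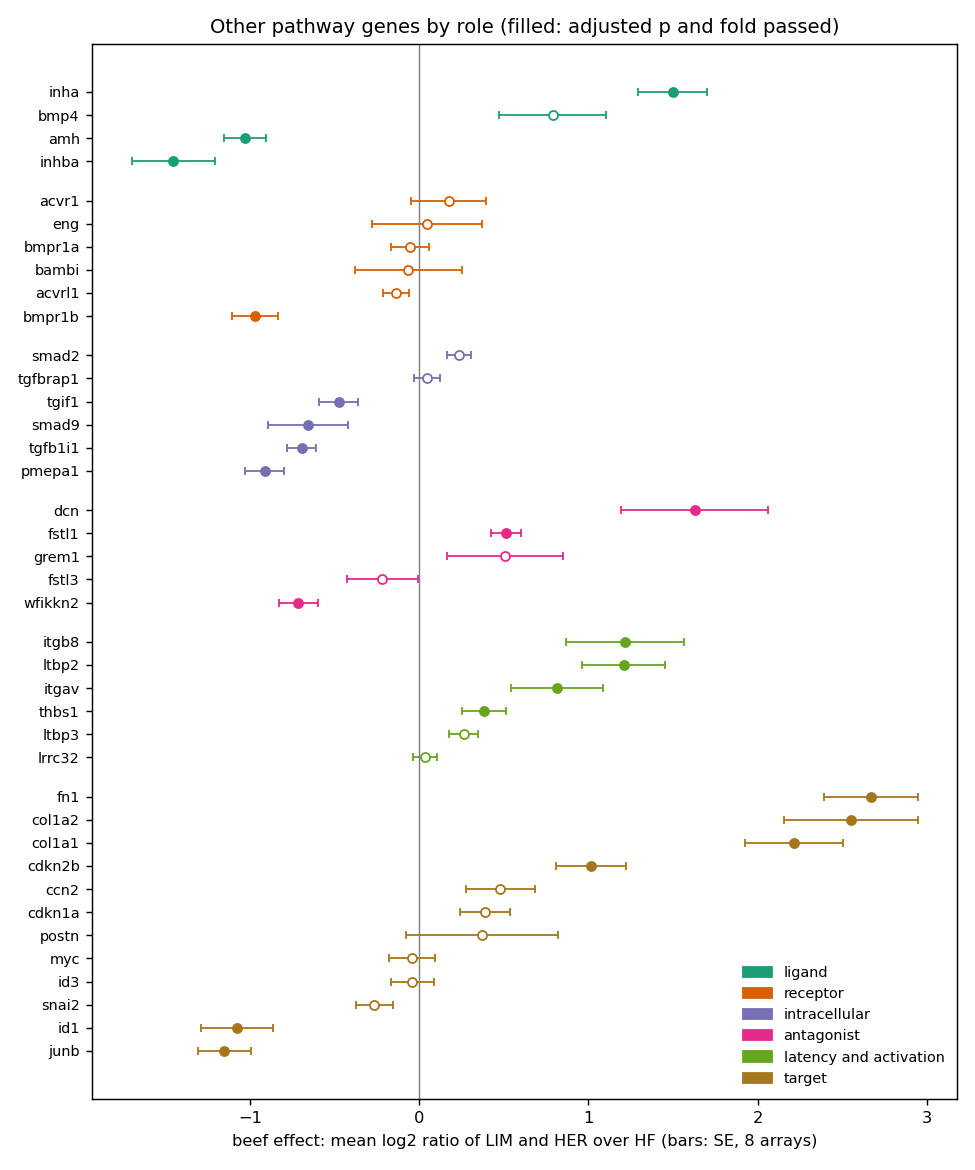
Beef effect (x axis: mean of LIM over HF and HER over HF, log2, with SE over 8 arrays) of the 39 other pathway genes tested, ordered by role and coloured by it; filled points passed the adjusted p and the fold limit. The matrix genes *fn1*, *col1a2* and *col1a1* lie farthest to the right, and *inhba* and *junb* farthest to the left.

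By root mean square difference of the log2 ratios over the 8 arrays, among 6263 genes, the genes nearest to *tgfb2* were *tuft1* (0.27), *gadd45b* (0.29) and *myl9* (0.31). Nearest to *tgfbr2* were *colgalt1* (0.25), *caps* (0.27) and *ager* (0.27). For *tgfb1* they were *rnaseh2a* (0.22), *prkcd* (0.23) and *hcar1* (0.24), and for the bright *tgfb3* probe *foxs1* (0.30), *junb* (0.38) and *atp8b4* (0.39). For the dim *tgfb3* probe they were *galnt17* (0.37), *rassf5* (0.38) and *cldn12* (0.42), so that the 2 probes of 1 gene did not share a nearest gene.

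**Figure D4:**
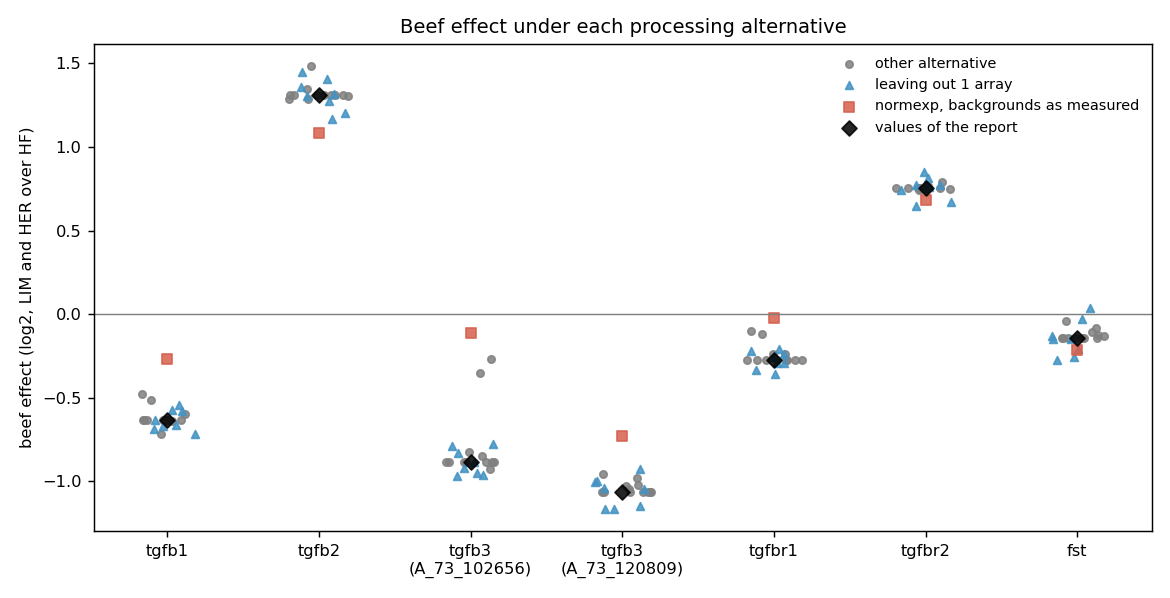
Beef effect (y axis, log2) of the 7 tested probes (x axis) as reported (black diamonds), with 1 array left out (blue triangles), with normexp on the local backgrounds as measured (red squares) and under the other alternatives (grey points). *tgfb2*, *tgfbr2* and the bright *tgfb3* probe keep their side of 0, the last of them running from -1.17 to -0.73. The dim *tgfb3* probe moves toward 0 when the background correction changes. *tgfb1* moves to -0.27 with normexp on the backgrounds as measured, *tgfbr1* comes as near to 0 as -0.02, and *fst* crosses 0.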

How the data were processed

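RNA of each culture pair was hybridised to bovine Agilent arrays. The deposited scanner files came from Feature Extraction 10.7.3.1, per the file headers; the probe design refers to HGSC Btau 3.1. The authors deposited intensity values for both channels, processed signals after background subtraction and dye normalization by that software, and a log10 ratio of Cy5 over Cy3 for each spot; the deposited series table holds the same log10 ratios (largest difference 0). The software's own p-values per spot were not used.

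Ratios were turned to log2 of beef over HF, spots flagged as outliers were left out (0 spots of the members), and spots of a probe were averaged. A ratio of exactly 0 stands for spots that the software found above background in neither channel. Probes well above background, with at least 1 spot, in at least 4 of 16 channels were kept. All 8 arrays entered 1 limma 3.58.1 fit (R 4.3.3) with LIM and HER means. Probes were named through a RefSeq table on another assembly, which matched 7793 of 20693 accessions and named 8297 probes; no coordinates or sequences were therefore taken. In beef channels 68.8 to 85.2% of probes were well above background, in HF channels 73.8 to 78%. The number of arrays limits the precision. On HER replicate 3, 38 local backgrounds in the red channel exceeded 500, the largest reaching 775167, against a median of 37.

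The members and gene lists were chosen with earlier results of these data known. Named pathway genes were, per role, up to 4 called genes with the largest beef effect, each by its brightest probe, and for each called member the 3 nearest genes. *smad2*, *bmp4*, *gdf5*, *gdf10*, *acvr1*, *eng*, *bambi*, *cdkn2b* and *id1* were named besides; the other tested genes of the lists enter the counts, and 1 gene was left out of the lists and is not reported here. Alternatives covered background correction, centring, scaling, filters, thresholds, the test named in the methods, array weights, a replicate block and leaving out each array; their use on the pathway lists was added after seeing the data. The fit was tested on simulated data.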

Additional observations from a re-analysis of the deposited data

Results flagged for a closer look

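*smad2* was picked out because its 4 LIM arrays lay above 0 and its 4 HER arrays below; LIM minus HER was 0.893 (log2), with an adjusted p of 0.0609 by limma. Over the alternatives its value ran from 0.825 to 0.979 and its adjusted p from 0.0189, with array weights, to 0.219, without LIM replicate 3. On the HER slide, 1 array stood apart from the other 3 for *smad9*, where HER replicate 1 was at -1.712, and for *col1a1*, where HER replicate 4 was at 1.051; the gap to the nearest array took 0.87 and 0.911 of the range. Chance alone picks out about 1 in 20 such groups of 4, and 0 of the groups of the members was picked out.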

How the results depend on the processing

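Counts are of the 7 member probes. Of the 147 values of their beef effect over 21 alternatives, 142 kept direction and call, 4 lost the call and 1, of a gene without a call, reversed; *tgfb2*, *tgfbr2* and the bright *tgfb3* probe kept their calls in all 21. Normexp on the backgrounds as measured left 3 member probes called in the beef effect (3289 of all probes) and 0 in HER over HF (0 of all probes). With marked backgrounds replaced, normexp called 5 member probes in HER over HF (2979 of all probes). Without background subtraction 5 were called there (3296 of all probes). With the unadjusted p 5 member probes were called in LIM over HF. The methods' t-test at an unadjusted p called 3 member probes in LIM over HF (5070 of all probes). In HER over HF it called 3 (4822 of all probes), the bright *tgfb3* probe being lost. After Benjamini-Hochberg the same t-test called 0 member probes in LIM over HF (1003 of all probes) and 0 in HER over HF (2 of all probes). Leaving out 1 array gave 1 to 5 member probes in HER over HF (1 without HER replicate 1 or 2) and 1527 to 5437 of all probes. In LIM over HF it gave 2 to 3 member probes and 3796 to 7010 of all probes. In the beef effect it gave 5 member probes in each case and 5855 to 7458 of all probes. The cause of these shifts was not tested.

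Values that changed sign belonged to results without a call. *tgfbr1* in LIM over HF was 0.047 with normexp as measured, 0.02 with marked backgrounds replaced, 0.005 with no background subtraction, and with 1 array left out it ran from -0.21 to 0.021 (without LIM replicate 4). LIM minus HER of *tgfb1* was -0.163 with normexp as measured, and that of *tgfb2* was -0.162 after scaling and from -0.183 (without LIM replicate 3) to 0.378 with 1 array left out, with -0.087 without HER replicate 4. With 1 array left out, *fst* ran from -0.043 (without HER replicate 3) to 0.406 in HER over HF and from -0.275 to 0.038 (without LIM replicate 1) in the beef effect. Of 399 values of the 19 named pathway genes 356 kept their call, 43 lost it and 0 reversed; the pathway count of 21 ran from 15 to 25.

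Same-numbered LIM and HER arrays deviated together with correlations of -0.236, 0.129, 0.305 and 0.54, so that the numbers were not taken as pairs. With the number as a replicate block (correlation 0.191) 3 member probes were called in LIM over HF (6069 of all probes). In HER over HF 4 were called (4291 of all probes), in the beef effect 5 (6345 of all probes) and in LIM minus HER 0. The block took the pathway count to 18 genes, *smad9* (adjusted p = 0.0883), *itgav* (0.056) and *thbs1* (0.0659) being lost, all by limma. Signal over background limits *mstn*, *tgfbr1* and the dim *tgfb3* probe.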
